A study of Drosophila melanogaster with 3 samples.

Results

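The 10 genes described here carry the Wingless signal from the cell surface to the nucleus: the receptor genes fz, fz2 and arr, the transducer gene dsh, the destruction complex genes Axn, Apc and sgg, the effector genes arm and pan, and the feedback inhibitor gene nkd. They were taken as a fixed list of symbols, and all 10 were found by symbol among the 13945 protein-coding genes on chromosomes X, 2L, 2R, 3L, 3R and 4. The data are peak lists from chromatin immunoprecipitation sequencing (ChIP-seq), in which DNA bound by a protein is precipitated and sequenced. The precipitated protein was CG17385, in Drosophila melanogaster embryos of both sexes collected from 0 to 24 h, from a transgenic line that stably expresses CG17385 with GFP at its C-terminus. All 3 samples are biological replicates of this 1 group, from 1 fly strain, so no comparison between conditions exists, and the labels do not give the promoter of the transgene. The labels are not at one: in a free-text line the material is an input control, but the assay is given as a transcription factor ChIP with an antibody to CG17385. The lists were read as ChIP lists.

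In Wingless signalling, a secreted Wnt protein binds a Frizzled receptor and its coreceptor, and Dishevelled then inhibits a complex built on Axin and APC in which kinases mark Armadillo, the fly β-catenin, for destruction. Armadillo that escapes enters the nucleus and joins Pangolin, the fly TCF, to activate target genes. The pathway patterns the segments of the embryo, and several of its own components are among its targets.

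A summit is the position of a peak's maximum, and its signal is the value that the authors' peak caller gave it within 1 list, in units that the sources do not name. The irreproducible discovery rate (IDR) list holds the 7588 peaks that passed the authors' test of agreement between replicates, with signals from 160 to 6471 and a median of 294. The pooled list holds 30000 entries from strong peaks down to background, and each replicate has a list of the same kind. Signals of different lists are not on a common scale, so replicates are compared by rank, with 1 the strongest. The read depth is unknown. The replicate lists hold 8950 to 10674 entries with a −log10 q of at least 2, and all replicates share a control file. A gene's window is its body with 5 kb added on each side, and a promoter summit lies within 500 bp of a start site of the gene.

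Every one of the 10 genes had an IDR summit in its window, but the summits were spread unevenly. The windows held 52 IDR summits in all, of which 46 lay at the 5 genes sgg, nkd, fz, fz2 and arr and 6 at the other 5. Each summit is counted on its own, including 5 pairs of neighbours within 300 bp of each other. Among all protein-coding genes, 57.6% had an IDR summit in the window (8029 of 13945). The share grew with length, from 56.0% for windows under 30 kb to 77.6% for 30 to 60 kb and 78.5% above 60 kb. A promoter summit was found at 6 of the 10 genes, namely Axn, Apc, fz, fz2, nkd and sgg, against 26.9% of all protein-coding genes. With only the 5' end of each gene as start site the count was 4, without fz2 and sgg, which have 3 and 11 start sites. No share over all genes is given for that count. The genes were listed with earlier results of these data known, so these counts are descriptions and no test of the list was made.

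By place, 37 of the 52 summits were in introns and beyond 500 bp of a start site of the gene. Of the rest, 8 were promoter summits and 7 lay outside the gene. No share of intronic summits over all IDR summits is given beside the 37, so that count describes these summits only. Of the 52, 12 (23.1%) were within 500 bp of any coding start site, against 45.9% of all IDR summits. Of the genes' 30 annotated start sites, 9 had an IDR summit within 500 bp, against 25.2% of all coding start sites. The strengths were those of the list at large. The median signal was 289, close to the 294 of all IDR peaks, with 25 summits above that value and 27 at or below it. Among the 1000 strongest of the 7588 in the list were 8 of the 52, in the windows of sgg, nkd, fz, dsh and arr. Those in the arr window lay inside cnn, and that in the dsh window inside CG1737.

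**Figure D1:**
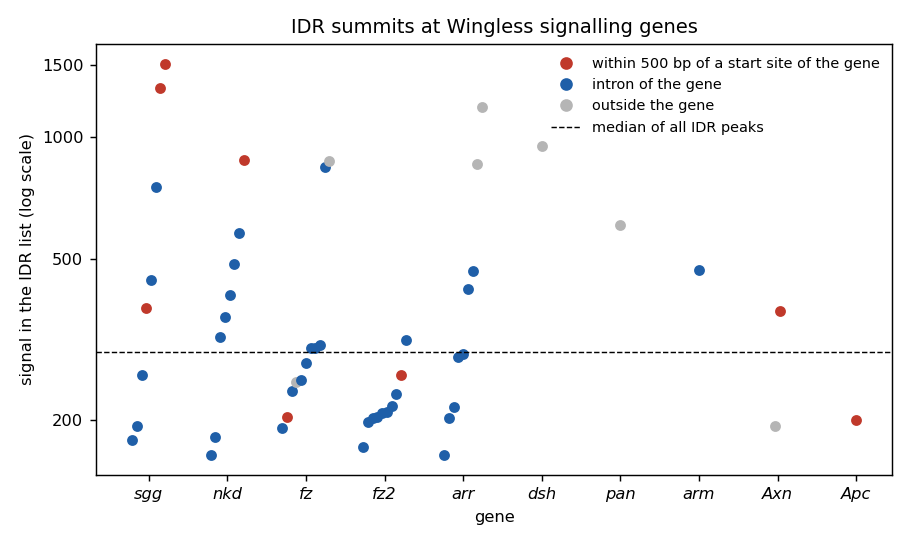
Signal in the IDR list (log scale) of each of the 52 summits in the windows of the 10 genes, 1 point a summit, coloured by place. The dashed line is the median of all IDR peaks, 294; a promoter summit is the highest point at sgg, nkd, Axn and Apc, whereas at fz2 9 of 10 points lie below the line.

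The strongest summits were found at similar ranks in all replicates, and weaker ones varied more. Of the 52 summits, 45 (86.5%) were matched, meaning a summit at most 100 bp away, in every replicate list, 5 in exactly 2 and 2 in exactly 1, against 88.6% of all IDR summits matched in every replicate. With a match at most 50 bp away the 45 became 30, and with matches limited to as many of the strongest entries of each replicate as the IDR list holds they became 33. Of the 45, 40 had a −log10 q of at least 2 in each replicate. The 8 summits of the top 1000 ranked no lower than 1346 in any replicate. In 6 of the 45 the highest and lowest rank differed by more than 3 times. The counts of 30, 33, 40 and 6 have no share over all IDR summits beside them, so they describe these summits only. In each replicate the strongest summit of any of the 10 windows lay at sgg.

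**Figure D2:**
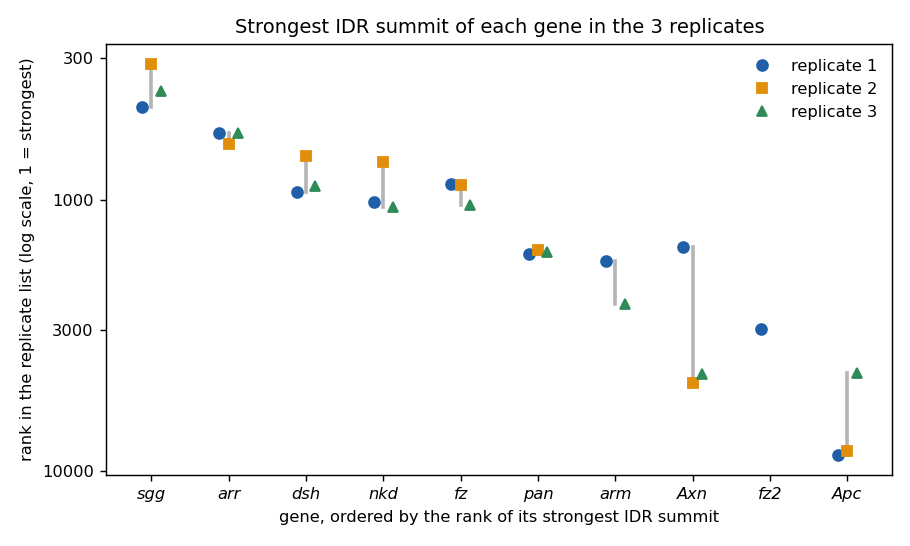
Rank of each gene's strongest IDR summit in the replicate lists (log scale, 1 at the top), 1 symbol a replicate and a grey line from the lowest to the highest rank. The ranks at sgg, from 314 to 454, lie above those of every other gene. At fz2 there is a match in replicate 1 alone, and at arm none in replicate 2. The summits shown for arr, dsh and pan lie inside the neighbouring genes cnn, CG1737 and RpS3A.

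The sequence under some of these summits carried a short triplet repeat. Words of 8 bases at 50 or more summits were ranked by the ratio of IDR summits to flanks that hold them, with flank counts below 3 taken as 3. Words were sought within 100 bp of the summit and, for the flank, within 100 bp of a point 1000 bp downstream. The ranking used the 7536 IDR summits outside the windows of the 10 genes. The 3 repeat words among the 10 highest were AGAAGAAG (925 summits against 149 flanks), GAAGAAGA (857 against 147) and AAGAAGAA (974 against 187), each counted on both strands. They overlap one another and are named here the GAA repeat. The other 7 were ATCGATAG, which overlaps the DRE element, and CACTGAGA, ACACTGAG, TACACTGA, CAGTGTAG, CCAGTGTA and ACTGAGAG, which share letters on one strand or the other. Of the 52 summits at the Wingless genes, 18 held 1 or more of the 10 words, against 23.7% of the other IDR summits. The GAA repeat was at 14 of the 52 (26.9%) and in the matching flank of 1, against 15.0% of the other summits and 3.72% of their flanks. No test was made of these shares.

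The repeat lay close to the summit in most cases. Its place is given by the centre of the nearest of its 8-base words. Among the other IDR summits that hold it, that centre was within 25 bp of the summit in 65.0%, and among the 14 at Wingless genes in 8. It was found at 5 of 8 summits of sgg, 3 of 8 of nkd, 2 of 11 of fz, 1 of 10 of fz2, 1 of 9 of arr and at the single summits of arm and pan, and at none of Axn, Apc and dsh. It was found at strong and at weak summits. Of the 8 in the top 1000, 2 held it, where 39.7% of the other summits of these ranks did, and of the 27 in the weaker part of the list, from rank 3795, 6 held it, against 9.24%. The sequences that follow reach 50 bp to each side of the summit and are written 5' to 3' in the gene's direction of transcription. They were chosen after their values were seen, to show where the repeat lies when present and that strong summits can lack it. Capitals mark any of the 10 words, and the sequence is that of the RefSeq copy of the Release 6 assembly (dm6).
sgg, chrX:2646403-2646503, plus strand: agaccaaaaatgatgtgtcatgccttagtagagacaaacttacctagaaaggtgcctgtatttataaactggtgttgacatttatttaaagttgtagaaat
sgg, chrX:2642629-2642729, plus strand: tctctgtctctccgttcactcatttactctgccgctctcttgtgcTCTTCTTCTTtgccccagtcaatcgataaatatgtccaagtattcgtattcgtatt
sgg, chrX:2658347-2658447, plus strand: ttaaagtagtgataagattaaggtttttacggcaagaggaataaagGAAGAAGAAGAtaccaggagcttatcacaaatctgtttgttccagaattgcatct
sgg, chrX:2661505-2661605, plus strand: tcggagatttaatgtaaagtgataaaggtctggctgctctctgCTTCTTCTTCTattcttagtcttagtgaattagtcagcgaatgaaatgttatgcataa
arm, chrX:1893626-1893726, minus strand: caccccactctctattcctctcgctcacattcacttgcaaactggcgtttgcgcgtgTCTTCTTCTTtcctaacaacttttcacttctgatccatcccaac
nkd, chr3L:19045563-19045663, minus strand: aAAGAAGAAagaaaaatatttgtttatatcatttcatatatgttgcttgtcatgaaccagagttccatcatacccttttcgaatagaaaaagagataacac
nkd, chr3L:19040453-19040553, minus strand: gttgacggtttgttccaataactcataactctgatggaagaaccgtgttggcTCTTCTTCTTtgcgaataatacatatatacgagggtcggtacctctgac
fz, chr3L:14272525-14272625, plus strand: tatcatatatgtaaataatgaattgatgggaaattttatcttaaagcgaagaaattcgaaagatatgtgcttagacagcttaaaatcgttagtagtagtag
At the sgg summits 2642679, 2658397 and 2661555 the repeat runs across the summit, with the centre of the nearest word at -0.5 bp (minus marks upstream). At the arm summit and at the intronic nkd summit 19040503 the nearest word is centred at 10.5 and 5.5 bp. At the nkd promoter a single word is centred at -45.5 bp. The strongest summits of sgg and fz, 2646453 and 14272575, hold none of the 10 words.

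**Figure D3:**
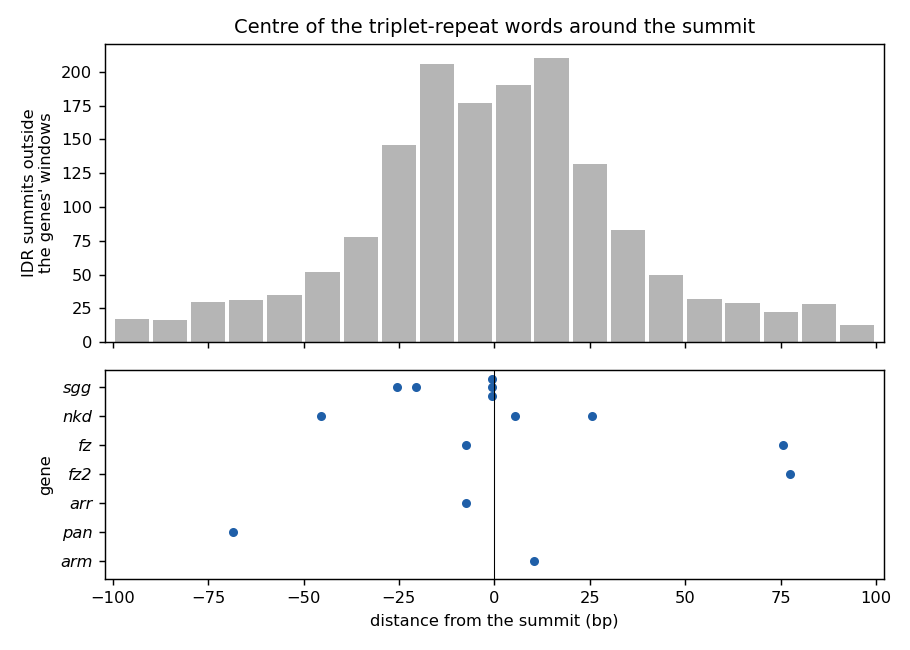
Distance from the summit to the centre of 8-base words of the GAA repeat: above, the number of IDR summits outside the 10 windows with a word centred in each bin of 10 bp, in chromosome direction; below, the nearest word at each of the 14 summits at Wingless genes, in the direction of transcription. Counts are highest within 20 bp of the summit, and 3 points of sgg lie at -0.5 bp, drawn apart for visibility.

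Motifs of other factors were counted within 100 bp of the summit on either strand, as matches of letters and not as bound sites. The TCF core CTTTGAT, the element that Pangolin binds, was at 1 of the 52 summits, the strongest of sgg, and at 3.22% of all IDR summits. The TCF helper GCCGCC was at 3 of the 52, at arm, arr and nkd, against 6.77%. The GAGA motif GAGAG, bound by GAGA factor, was at 22 (42.3%), against 28.3%, and its 6-base form GAGAGA, which contains it, at 12 (23.1%), against 13.9%. CGATA, found in BEAF-32 sites, was at 11, against 25.5%. The DRE TATCGATA and the core promoter Motif 1 GGTCACAC were at none of the 52, against 2.62% and 1.77%, and the Zelda motif CAGGTAG at 1, in fz, against 1.00%. No test was made of these differences.

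Among the receptor genes, fz, which encodes a Frizzled receptor shared with planar polarity signalling, had 11 IDR summits over a window of 104 kb. The gene (FBgn0001085) lies on the plus strand of chromosome 3L from 14274343 to 14368639 (dm6) and has 1 start site. Its strongest summit, at 14272575, lay 1768 bp upstream of the start with a signal of 873 and ranked 874, 878 and 1044 in replicates 1, 2 and 3 (mean 932 ± 97.0, SD, n = 3). An intronic summit at 14304054, 29711 bp into the gene, was nearly as strong, with a signal of 840 and ranks of 1251, 836 and 984. In replicate 1 the upstream summit was the stronger, and in replicates 2 and 3 the intronic one, so their order did not hold across replicates. The promoter summit itself, at 14274258 and 85 bp upstream of the start, was weak. Its signal was 204, and it ranked 4374 and 5619 in replicates 1 and 3 but 15965 in replicate 2, with a −log10 q there of 0.864. The other 8 summits had signals of 191 to 307 and reached as far as 92018 bp from the start, near the 3' end. Among them, the summit at 14272781 lay 206 bp from the strongest, within the same peak boundaries. The nearest coding start site was that of fz for 5 of the 11 and that of CG13481 or CG13482 for 6. All 11 were matched in every replicate. Among the 307 protein-coding genes with a window over 60 kb, with a median of 3 IDR summits, 34 (11.1%) held 11 or more.

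The other Frizzled gene, fz2, which encodes a receptor with high affinity for Wingless, had nearly as many summits as fz but no strong one. It (FBgn0016797) lies on the minus strand of 3L from 19140975 to 19235373, has 3 start sites, and held 10 IDR summits, all in the gene body. Their signals ran from 172 to 315. In the length class over 60 kb, 15.0% of genes held as many. Of the 10, 8 lay between 1630 bp upstream and 10560 bp downstream of the middle start site at 19170648, from which 5 transcripts are annotated. The summit nearest to it, at 19170621 and 27 bp downstream in a 5' UTR exon, had a signal of 258 and ranked 7188, 4393 and 4615 in the replicates (mean 5399 ± 1554, SD, n = 3). The 5'-most start at 19235373 had no IDR summit nearer than 4020 bp, but a weak pooled entry lay 22 bp from it with a signal of 114. The strongest IDR summit, at 19163042 with a signal of 315, was matched within 100 bp in replicate 1, at rank 2984, and in neither other replicate. A second summit 207 bp away, at 19163249, was matched in replicates 1 and 2. Replicate 2 listed 1 summit between them, at 19163157 and rank 3499. Over the gene, 6 of 10 summits were matched in every replicate, where at fz 11 of 11 and at nkd 8 of 8 were. The window was dense in weak entries, with 67 pooled summits or 6.42 per 10 kb, against 2.24 over the genome.

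**Figure D4:**
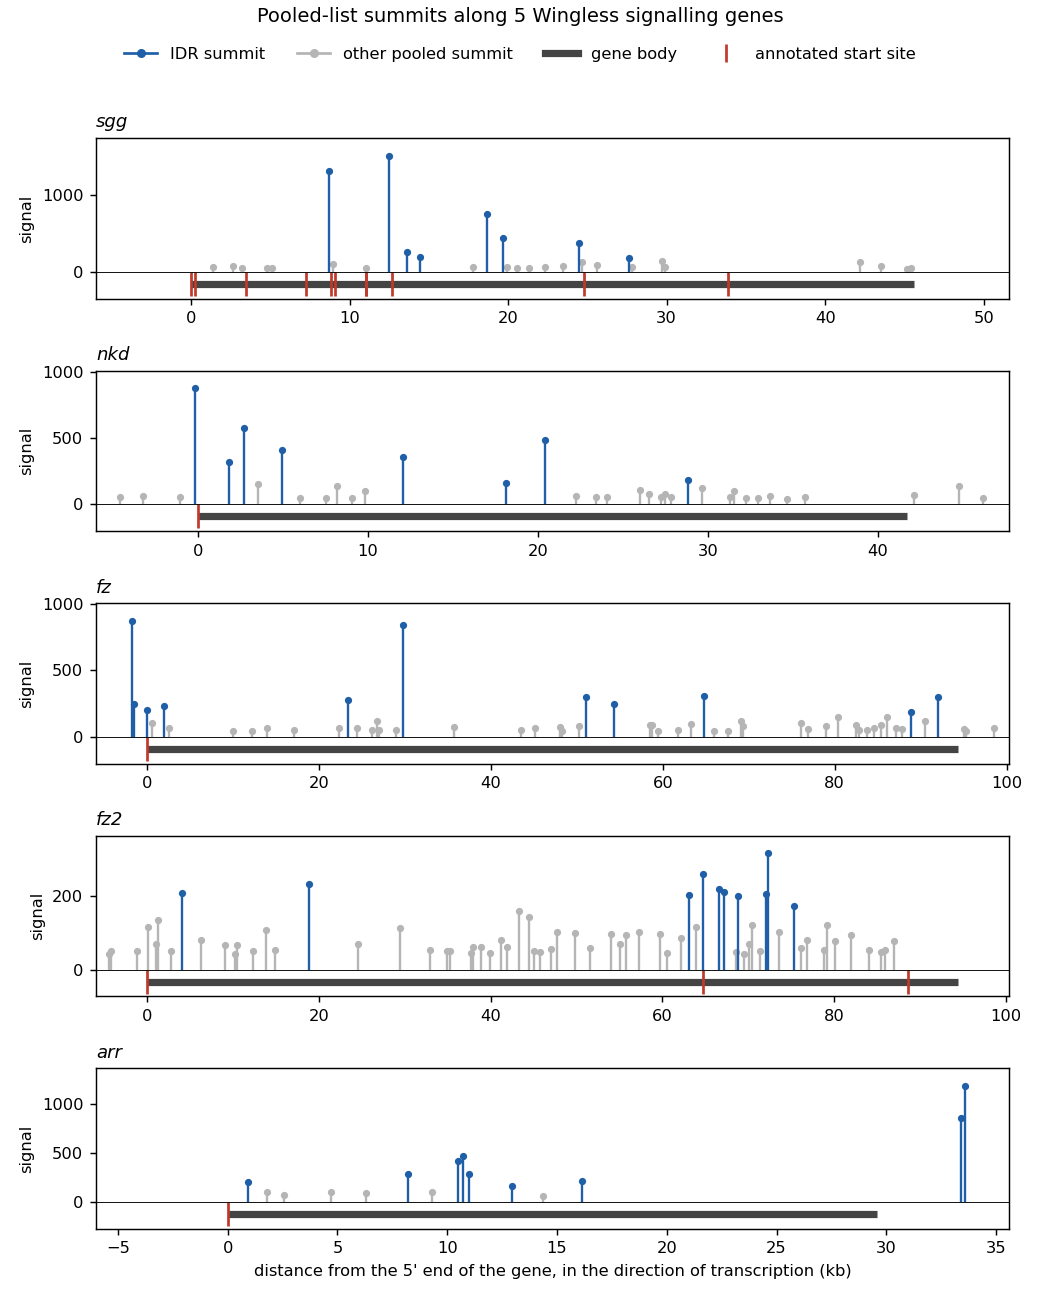
Signal of pooled-list summits (stems) along sgg, nkd, fz, fz2 and arr, against distance from the gene's 5' end in the direction of transcription (kb); IDR summits are blue, other pooled entries grey, the gene body a dark bar and annotated start sites red ticks. The strongest stem of nkd lies at its start site and the strongest stems of sgg at internal start sites. Most IDR summits of fz2 lie around its middle start, and the strongest stems at arr lie past its 3' end.

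The coreceptor gene arr, whose product is the fly LRP5/6, had no promoter summit, and the strongest signals of its window lay at a neighbour. It (FBgn0000119) lies on the minus strand of 2R from 13453640 to 13483229. Past its 3' end, inside cnn, a gene of a centrosomal protein, summits at 13449631 and 13449845 had signals of 1184 and 855 and lay 231 and 445 bp from a start site of cnn. They ranked 564, 621 and 566, and 1346, 1062 and 1009, in replicates 1, 2 and 3. The first was the strongest of the window in each replicate. The 7 summits inside arr were weaker, with signals of 164 to 466, and 6 of them lay from 8224 to 16141 bp downstream of the start. The strongest of these, at 13472511 and 13472755, lay 244 bp apart with signals of 466 and 422. Both were matched in every replicate, with ranks of 2218, 2641 and 1881 (mean 2247 ± 381, SD, n = 3) and of 2309, 2124 and 2731 (2388 ± 311), which overlap. The nearest coding start site to these 6 was that of CG43192 and not of arr. The summit nearest to the start of arr was 906 bp downstream, with a signal of 202. Of 706 genes with windows of 30 to 60 kb, with a median of 2 summits, 5.67% held 9 or more, a count that at arr includes the 2 at cnn.

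At dsh, which encodes Dishevelled, the cytoplasmic protein that relays the signal from the receptor, no IDR summit lay in the gene or near its start. The gene (FBgn0000499) is short, from 11355881 to 11358724 on the plus strand of X. The IDR summit of its window was at 11351538, inside CG1737 and at -4343 bp from the start of dsh, with a signal of 947 and ranks of 933, 687 and 884 (mean 835 ± 130, SD, n = 3). The start site of CG1737 was the nearest, at 930 bp. Near the start of dsh the pooled list had weak entries at 183 bp, with a signal of 79.0 and −log10 q of 1.13, and at -699 bp, with 88.2 and 1.38. Each had a counterpart in 1 replicate. In the gene body, replicate 1 listed 1 entry and replicates 2 and 3 none, and none had a −log10 q of 2, so a signal over the gene was not detectable in these lists.

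The destruction complex gene sgg, which encodes the kinase GSK-3, carried the strongest promoter summits of the 10 genes. It (FBgn0003371) lies on the plus strand of X from 2633952 to 2679553 and has 11 start sites. The summit at 2646453, 184 bp upstream of the start at 2646637, had a signal of 1514 and ranked 454, 314 and 398 (mean 389 ± 70.5, SD, n = 3). The summit at 2642679, 75 bp upstream of the start at 2642754, had a signal of 1317 and ranked 349, 573 and 619 (514 ± 144). It was the stronger in replicate 1 and the weaker in replicates 2 and 3. The other promoter summit, at 2658397, lay 369 bp upstream of the start at 2658766, had a signal of 379 and ranked 2620, 6720 and 2219. The 3 lie within 500 bp of 4 of the 11 start sites and in introns of the longer transcripts. The 5'-most start, at 2633952, with 6 annotated transcripts, was 8727 bp from the nearest IDR summit, and its nearest pooled entry, 1366 bp away, had a signal of 65.4. The promoter summits of sgg were thus at internal start sites and not at the 5' end. The other 5 summits were intronic, led by 2652596 with a signal of 750 and ranks of 944, 1171 and 1425. All 8 were matched in every replicate, and 7.93% of the genes with windows of 30 to 60 kb held as many.

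Axn encodes the scaffold of the destruction complex, and its promoter summit varied between replicates. The gene (FBgn0026597) lies on the plus strand of 3R from 30022842 to 30035311. The summit, at 30023059 in a 5' UTR exon and 217 bp downstream of the first start, had a signal of 372. It ranked 1488 in replicate 1 and 4733 and 4359 in replicates 2 and 3 (mean 3527 ± 1775, SD, n = 3), so replicate 1 stood apart. A second summit at 30022100, at -742 bp from that start, had a signal of 194, lay inside Mgat2 and 121 bp from its start, and was matched in replicate 3 alone. The start site of Axn at 30027361, with 3 transcripts, had its nearest pooled entry at -4302 bp, which is the promoter summit itself.

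Apc, the gene of a tumour suppressor protein that binds Armadillo, had 1 weak IDR summit at its promoter. It (FBgn0015589) lies on the minus strand of 3R from 28832301 to 28844748, and the summit at 28844688 lay 60 bp downstream of the 5' start, in a 5' UTR exon. The signal was 200, and the ranks were 8718, 8400 and 4334 in replicates 1, 2 and 3 (mean 7151 ± 2445, SD, n = 3). In every replicate a stronger summit lay at the other end of the gene, past its 3' end. It was at 28832102, 28832114 and 28832129 in replicates 1, 2 and 3, with ranks of 4723, 1917 and 2409 and a −log10 q of 3.50, 3.90 and 3.71. The start of WASp, a gene of an actin nucleation promoting factor, was the nearest to it, at 78 bp from the replicate 1 summit. The pooled list had no entry there, the nearest being 606 bp away, and the IDR list none within 12279 bp. Over all chromosomes, 150 summits with a −log10 q of at least 2 in each replicate had no IDR summit within 100 bp, and 55 of these had no pooled summit either. In the windows of the 10 genes there were 2 more such summits, both in fz2 and one of them 113 bp from an IDR summit.

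The effector gene arm, which encodes Armadillo, had a single IDR summit, deep in the gene and not in all replicates. The gene (FBgn0000117) lies on the minus strand of X from 1891401 to 1900646 and has 4 start sites between 1899524 and 1900646. The summit at 1893676 was in an intron 5848 bp downstream of the nearest of these, with a signal of 470. It ranked 1680 in replicate 1 and 2423 in replicate 3, and replicate 2 had no summit within 100 bp. In replicate 2 the strongest entry of the window was instead at 1899765, near the start sites, at rank 7254 with a signal of 46.0. The pooled list had an entry there too, at 1899831 and -221 bp from the start at 1899610. It had a signal of 136, a −log10 q of 2.64 and a counterpart in 2 replicates, and was not in the IDR list. The summit in the intron had no other gene over it, and the nearest coding start was that of mRpL16, at 3420 bp.

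The other effector gene, pan, which encodes the TCF protein Pangolin, had no IDR summit in its body of 44.9 kb. It (FBgn0085432) lies on the plus strand of chromosome 4 from 69326 to 114270. The summit in its window, at 67194, was 13 bp from the start of RpS3A, a gene of a small subunit ribosomal protein, and 2132 bp upstream of pan. Its signal was 604 and it ranked 1579, 1528 and 1555 (mean 1554 ± 25.5, SD, n = 3), the tightest ranks among the strongest summits of the 10 genes. A pooled entry 148 bp downstream of the 5' start of pan reached a signal of 118 at a −log10 q of 2.13, and the next pooled entry was at 131073, beyond the gene. In the stretch of the gene past that first entry, replicates 1, 2 and 3 listed 1, 8 and 2 entries, with a highest −log10 q of 3.27, 1.67 and 1.12. The window had 0.728 pooled entries per 10 kb, the lowest of the 10 genes, against 2.24 over the genome.

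The feedback inhibitor gene nkd, which encodes Naked cuticle, a protein that binds Dishevelled and is induced by Wingless signalling, had 8 IDR summits with the strongest at its only start site. The gene (FBgn0002945) lies on the minus strand of 3L from 19003741 to 19045449. The promoter summit, at 19045613 and 164 bp upstream of the start, had a signal of 875 and ranked 1015, 726 and 1063 (mean 935 ± 182, SD, n = 3). Of the 8 summits, 4 lay within 5 kb of the start. Downstream, intronic summits at 2739 and 4946 bp had signals of 578 and 406, and further in, summits at 12082 and 20396 bp had 360 and 486. The remaining 3 had signals of 164 to 321. All 8 were matched in every replicate. Of the genes with windows of 30 to 60 kb, 7.93% held as many. The window also had the densest pooled entries of the 10 genes, 36 or 6.96 per 10 kb.

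Ordered by the rank of the strongest summit in the window, the genes fell into similar places in all replicates at the top and not below. In replicates 1, 2 and 3 sgg led at 349, 314 and 398, and arr followed, through the summit at cnn, at 564, 621 and 566. Then came fz, dsh and nkd, between 687 and 1063, whose ranks overlap, so their order is not resolved. The single summit of pan, between 1528 and 1579, was lower than all of these in each replicate. The remaining genes changed places. The ranks were 1488 to 4733 for Axn, 1680 to 7254 for arm, 1917 to 4723 for Apc and 2984 to 4110 for fz2. For Apc these are the ranks of the summit near WASp. For dsh and pan the ranks given are those of the summits at CG1737 and RpS3A. At sgg, fz, fz2 and arm the strongest summit was not the same one in every replicate, so their ranges are not the spread of a single summit. The 7254 of arm is the replicate 2 entry near its start sites. The 4110 of fz2 is the replicate 3 summit at 19168831, 5789 bp from its strongest IDR summit.

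Other genes of the pathway were counted from a list of 27, all found in the annotation. An IDR summit lay in the window of 23 and at the promoter of 15, against 57.6% and 26.9% of all protein-coding genes. Of 7 ligand genes 3 had a promoter summit, wg (signal 179), Wnt5 (242) and Wnt6 (466). Of the 2 secretion genes wls had one, nearest to the start of Adck5 (325). Of 7 receptor and extracellular genes 4 had one, namely fz4 (261), the Ryk family gene drl (214) and the glypican genes dally (254) and dlp (456). Among the 6 further genes of the destruction complex and its regulators, 4 had one. The casein kinase I family gene gish had the highest promoter signal of the list, 2999, at -165 bp from a start. The others of this group were CkIalpha with 1077, whose kinase primes Armadillo for GSK-3, Apc2 with 310 and dco with 250. The nuclear genes gro, a corepressor gene, nej, the CBP coactivator gene, and pygo had promoter signals of 1247, 1046 and 693. Each of the 15 promoter summits was matched in every replicate. Without a promoter summit, fz3 and Tnks had window summits of 1793 and 1468. No IDR summit lay in the windows of Wnt2, wntD, por and slmb.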

How the data were processed

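The 3 samples are biological replicates 1 to 3 of 1 group, ChIP-seq of CG17385 in embryos, sonicated to 200 to 800 bp per the labels. Each replicate has a list of peaks and background. According to the descriptive text files deposited beside them, each such list derives from its own alignment plus a control file common to all, and the pooled list from the 3 alignments plus that control. The IDR list derives from all of these lists. Each gives the authors' signal per peak and the deposited −log10 of the q-value, with coordinates on dm6 per the labels. Aligner, caller and IDR threshold: not given in the sources used here.

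Start sites and gene parts came from Ensembl release 115, on the assembly of dm6, and sequence from RefSeq. Summits were placed, counted and matched with Python 3.11.15 and are printed 1-based. Ranks follow the signal within a list. The functions were tested on simulated data. The genes, lists and motifs were chosen with earlier results of these data known. The rule for named genes took all 10 genes, their strongest and promoter summits, further summits in order of signal, and the pathway genes with a promoter summit. Outside that rule, the fz2 summit at 19163249, the summit near WASp, fz3 and Tnks were chosen after their values were seen. The rule also does not cover the fz summit at 14272781 and the arr summit 906 bp from the start. Nor does it cover the entries of pooled or replicate lists named at arm, dsh, pan, fz2 and sgg. Since labels give 1 group and signal scales differ between lists, no test was made. The spread is the SD over 3 replicates. The replicate lists are equally long, which tells nothing of depth, so no interval that needs read counts is given.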

Additional observations from a re-analysis of the deposited data

How the results depend on the processing

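Under the alternatives tried, between 7 and 10 of the 10 genes had a summit in the window. With the strongest 50% of the IDR list, 25 summits, 3 genes with a promoter summit and 9 other pathway genes with one were left, and Apc had no summit. In that part of the list 42.4% of all protein-coding genes had a summit in the window. The matching share for promoter summits is not given, and the 26.9% above belongs to the whole IDR list. With pooled entries of a −log10 q of at least 2, the windows held 76 summits of the 229 pooled entries, or 33.2%, against 35.9% of the whole pooled list, and the share of all genes was 64.9%. With IDR summits matched in every replicate it was 54.0%. With each replicate left out in turn and a match required in both others, it was 54.5 to 56.4%, with 46 to 47 summits in the windows. The IDR list itself was not remade without a replicate. Of the 52 summits, 45 were matched in every replicate, against 30 with a match at most 50 bp away, 49 with one at most 200 bp away and 33 among the strongest entries of each replicate. Only for the 45 is a share over all IDR summits given above. The single summit of arm, which has no match in replicate 2, was kept only when replicate 2 was the one left out. Axn kept 1 of its 2 summits whichever replicate was left out, as it did with a match required in all 3. Of its 10 summits fz2 kept 6 without replicate 2, as with all 3, and 8 and 7 without replicates 1 and 3. The share of all genes was 18.2% for gene bodies alone, where pan and dsh had no summit, 43.9% with 2 kb added and 71.2% with 10 kb added. Counting only summits whose nearest coding start site is the gene's own left 33 summits at 7 genes, without arm, pan and dsh. With words taken from within 50 bp of the summit, 3 of the 10 words were the same, all of them the GAA repeat, and 15 summits held 1 of the words. No paired analysis was possible because there is 1 group. The depth is unknown, so the absence of a summit does not show absence of binding.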
